A study of Saccharomyces cerevisiae with 4 samples.

Results

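The set described here holds the protein-coding genes of budding yeast (Saccharomyces cerevisiae) that carry an intron and do not encode a canonical ribosomal protein. Genes were taken from the R64 annotation where the coding parts are separated by a gap of more than 20 bases. Genes named RPL or RPS plus a number were left out, as were a further 14 names (EFB1, TEF4, ASC1, IMD4, NOG2, ACT1, PFY1, COF1, HOP1, REC8, DMC1, MND1, SFT1 and APT2), of which 3 have no such gap. This left 183 of 6021 annotated protein-coding genes, against 88 ribosomal protein intron genes and 5684 nuclear genes without an intron. Of the 183, 11 lie on the mitochondrial genome, for which the data hold no molecule, so 172 nuclear genes were studied. The ribosomal stalk protein gene RPP1B stayed in because its name does not begin with RPL or RPS.

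The data came from TIF-Seq, which reads both ends of 1 RNA molecule as a pair, its cap site and its poly(A) site. All 4 libraries were made from strain FSY3636, a MATa strain of the S288c background carrying delta rrp6::kanMX4, grown in YPAD, a rich medium with glucose, to mid-log phase. They represent 2 cultures with 2 library preparations each, and no strain with an intact RRP6 is part of the comparison. RRP6 itself had 0 sense reads. The deposited counts pool the 4 libraries in 1 column, so no value has a replicate error, no groups could be tested and all intervals (95%) cover counting error only.

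A spliceosomal intron is removed in the nucleus after its 5′ splice site, branch point and 3′ splice site have been recognised. Most yeast genes have no intron, and the genes that do usually have 1, close to the start codon. RRP6 is an exonuclease subunit of the exosome in the nucleus, where this complex degrades RNAs that are retained or terminated early, unspliced precursors among them. The end pairs used here show where a molecule starts and stops. They do not show whether the intron between both ends had been removed.

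The 172 nuclear genes have 180 introns, since 8 genes have 2. The median intron was 96 bases long, the shortest 49 and the longest, in DBP2, 1002; 147 introns were under 150 bases and 19 over 300. The 5′ splice site read GTATGT in 128 of 180 introns (71.1%), GTAAGT in 13 and GTACGT in 12, and the last 3 intron bases read TAG in 88 and CAG in 76. The branch motif TACTAAC, searched on the sense strand, was present without a mismatch in 138 introns (76.7%), with 1 mismatch in 38 and in no such form in 4. In ribosomal protein introns, whose median length was 408.5 bases, TACTAAC was present in 93.3%, and in 96-base windows from the middle of intronless genes in 18 of 5664 (0.318%). The sites of the genes on which the results below turn are printed from the R64 sequence, 5′ to 3′ on the sense strand, with the first 6 intron bases, the branch motif or the last 3 intron bases in capitals. UBC4 (intron chrII:407028-407122, minus strand) stands for the common pattern, and GCR1 (chrXVI:412262-413012, plus), SUS1 (first intron chrII:462210-462289, plus) and HAC1 (chrVI:75840-76091, plus) for departures from it at the 5′ splice site.
UBC4 5′ splice site: tgatctagaaagGTATGTctaaag
UBC4 branch motif: cttattTACTAACaaaatcaa
UBC4 3′ splice site: atgctattgaacTAGagatccacctac
GCR1 5′ splice site: gaaaatggtatgGTATGAtcataa
SUS1 5′ splice site: aaactatgaactGTATGAtaaaat
HAC1 start of intron: ggcgtaatccagCCGTGAttacga
HAC1 end of intron: tgcttgtactgtCCGaagcgcagtcag
HAC1, which encodes the transcription factor of the unfolded protein response, has neither GT at the start nor AG at the end of its intron, which is known to be cut out by an endonuclease of the endoplasmic reticulum and sealed by tRNA ligase, without the spliceosome.

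The 4 libraries together held 1833796 reads on 425462 distinct start and end pairs, here called isoforms. The intron genes took 39642 sense reads on 11475 isoforms, of which 69.5% had 1 read. Their summed level was 21617 CPM, reads scaled to the total of all reads (Poisson interval 21405 to 21831 CPM), or 2.16% of all reads. A read here is 1 pair of ends whatever the length of the RNA, so CPM was not divided by length. The share of reads covering the whole coding region was lower in longer genes, as the values by coding length below show. Whether long molecules were recovered less well was not tested. The median nuclear member had 65 reads, against 31 for intronless genes and 3201 for ribosomal protein intron genes. The gap to intronless genes varied with coding length. Medians were 131.5 and 43 reads up to 500 coding bases, and 71 and 70.5 from 501 to 1000. They were 41.5 and 35 from 1001 to 1500, and 5 and 19 above that. This longest class held 33 of the 172 members but 2152 of the 5684 intronless genes. At least 50 reads were found for 94 members (54.7%), against 39.2% of intronless genes. A further 59 members had 1 to 49 reads, and 19 had none, which allows up to 1.64 CPM. Of the latter, 8 are annotated as helicase genes of the subtelomeric Y′ elements, which have many near-identical copies, and AMA1, PCH2, HFM1, REC114 and GMC2 act in meiosis.

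A few genes held most of the molecules, and 10 of them took 51.1% of the reads. UBC4, a ubiquitin-conjugating enzyme (YBR082C, chromosome II, 406628 to 407169, minus strand), led with 4976 reads or 2713 CPM (2639 to 2790). RPP1B, the stalk protein (YDL130W), followed with 3365 reads or 1835 CPM (1774 to 1898). RPO26, a subunit shared by the nuclear RNA polymerases, had 2201 reads, and SAR1, the GTPase that starts COP coat assembly on the endoplasmic reticulum, had 2162. The intervals of these last 2 genes, 1151 to 1251 and 1130 to 1230 CPM, overlapped, whereas the step from RPP1B to RPO26 was far larger than counting error. Next came ERD2, the receptor that returns lumenal proteins to the endoplasmic reticulum, with 1718 reads, YPR170W-B with 1382, and DID4, an endosomal sorting protein, with 1233. YOP1, which shapes tubules of the endoplasmic reticulum, had 1208 reads, YPR063C had 1059, and RIM1, the single-strand DNA-binding protein of mitochondria, had 940. The intervals of DID4 (635 to 711 CPM) and YOP1 (622 to 697 CPM) overlapped, as did those of YPR063C (543 to 613 CPM) and RIM1 (480 to 546 CPM). The most used start site differed in weight between them: it held 51.8% of the reads of RPP1B, 43.7% of ERD2, 37.3% of SAR1, 34.8% of RPO26 and 15.4% of UBC4, whose reads spread over 137 start sites.

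By function, the largest sum fell to vesicle traffic and membranes, where all 21 members had reads, 8923 in all (4866 CPM), led by SAR1. The 11 members of the ubiquitin family and proteasome held 7293 reads (3977 CPM), of which UBC4 alone took 4976, and their lowest gene had 40. The list for splicing and RNA processing counted 19 members with 4001 reads (2182 CPM). It also holds genes of transcription and chromatin (RPO26, SRB2, TFC3, TAF14 and HPC2), and RPO26 alone gave 2201 of the reads. The 6 mitochondrial members held 1661 reads, with RIM1 highest, and the 11 cytoskeletal members 1226, with the calcineurin subunit gene CNB1 highest at 399. The 5 transcription and stress regulators held 853 reads, 448 of them from RFA2, a subunit of replication protein A. Genes of meiosis and sporulation were low: 7 of 11 had reads, 80 in all (43.6 CPM, 34.6 to 54.3), and REC107, needed for meiotic double-strand breaks, had 35 of them. HMRA1 had 51 reads, all of which spanned both of its introns. It is the silent copy of the mating type gene a, and its sequence is shared with the active copy of this MATa strain, so the source of these reads could not be told apart. Members outside these lists numbered 87 and held 15554 reads.

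Relative to the first intron, 36364 of 39642 reads (91.7%, Wilson interval 91.5 to 92.0) started before it and ended past it. A molecule that spanned the intron reached from the start to the stop codon in most cases, since 34305 of the 36364 covered the whole coding region. These were 86.5% of all sense reads. Ends within the intron were rare, 159 reads (0.401%, 0.343 to 0.468) in 44 genes, and a further 138 reads (0.348%, 0.295 to 0.411) in 28 genes ended before it. Starts within the intron with an end past it made up 384 reads (0.969%, 0.877 to 1.07) in 77 genes, and 56 reads (0.141%) in 4 genes lay inside the intron altogether. The remaining 2541 reads (6.41%, 6.17 to 6.66) started past the intron. In ribosomal protein intron genes the same shares were 95.4% spanning, 0.354% (0.335 to 0.373) ending within, 0.0160% (0.0124 to 0.0206) ending before, 1.39% starting within and 2.80% starting past. Ends before the intron thus had the larger share in the set outside the ribosomal proteins, by more than the counting error of either, and the share was still 0.177% without isoforms that overlap another gene. YBR090C gave 60 of the 138 reads. DBP2 and HAC1, with 1273 and 661 coding bases before the intron, gave 22 and 7. The share was not scaled to the length of RNA before the intron, and ribosomal protein molecules started closer to it. The intervals for ends within the intron overlapped.

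**Figure D1:**
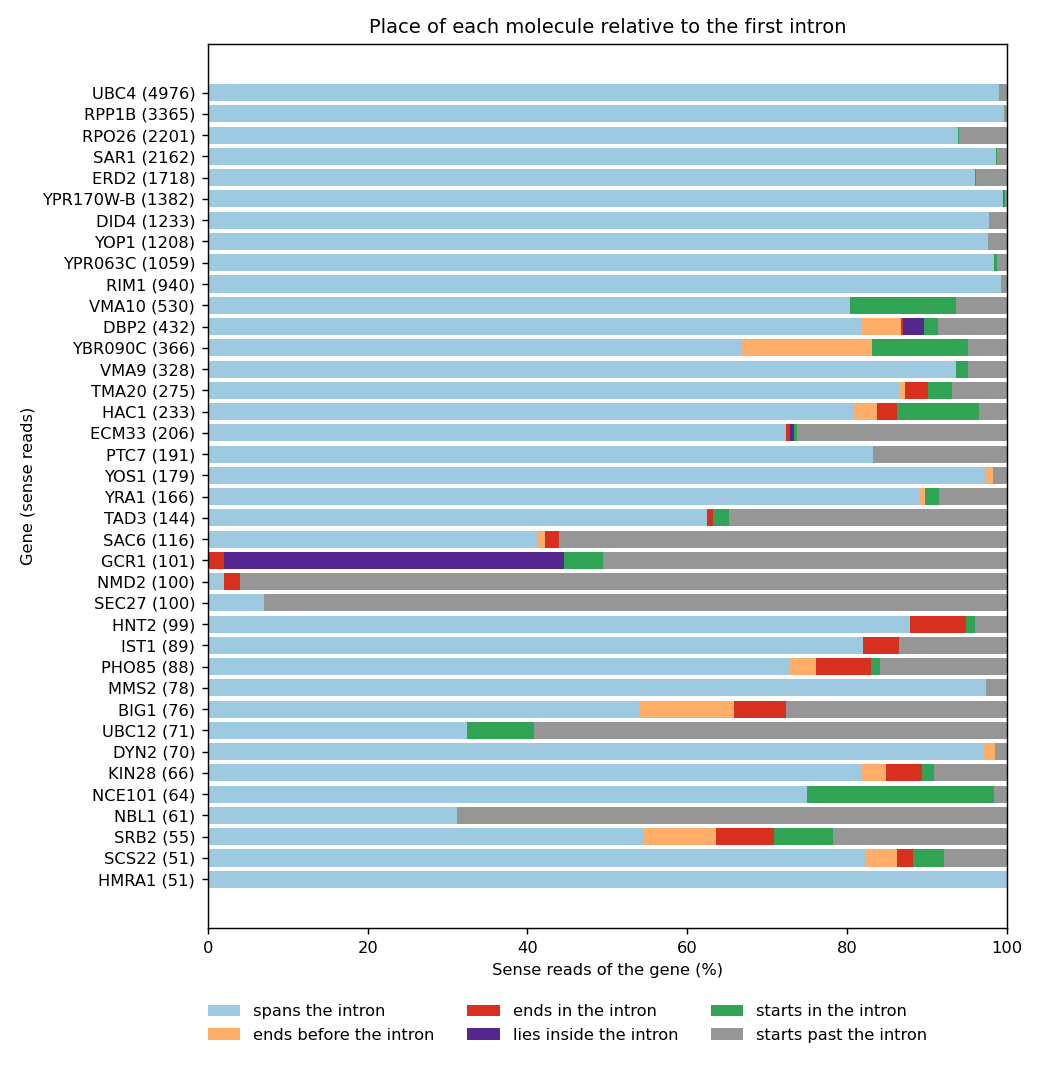
Placement of molecules relative to the first intron for the members named by rule with at least 50 sense reads. Bars give the percentage of the gene's sense reads (horizontal axis, 0 to 100) in 6 classes, with the read count in brackets. The 10 genes with most reads were nearly filled by spanning molecules, at 93.9% or more, while GCR1 had none.

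Single genes departed far from these sums. Among the 94 genes with at least 50 reads, the median spanning share was 91.0% with quartiles of 80.5% and 97.1%, and 49 genes were over 90%. No end within the intron was seen in 67 genes and no end before it in 75, whereas 4 genes exceeded 5% in each class. No start within the intron was seen in 37 genes, and 9 exceeded 5%. Starts past the intron were the most common departure, with a median of 6.03%, 50 genes over 5% and 30 over 10%. The plot of placement by gene shows that the 10 genes with most reads ranged from 93.9% spanning in RPO26 to 99.6% in RPP1B.

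GCR1, the activator of glycolytic genes (YPL075W, chromosome XVI, 412254 to 415362, plus strand), was the member with reads in number but no spanning molecule: 0 of 101 reads, which allows up to 2.97%. Of its reads, 43 lay wholly inside the 751-base intron, on 41 isoforms. They started between intron bases 9 and 115, ended between 274 and 688, and had a median length of 363 bases. Most ended away from A-rich sequence; 9 of the 43 ended where at least 6 of the next 10 genome bases are A, a place where priming on genomic A runs can mimic a poly(A) tail. Another 51 reads started past the intron, 5 started within it and 2 ended within it. The coding region of GCR1 is 2358 bases long, and the share of molecules that cover the coding region was low in genes of that length, with or without an intron (values by coding length follow). Only the 2 reads that ended within the intron started before it. The 5 that started within it and ended past it were 702 to 1099 bases long. Whether a loss of long molecules during recovery had a part in the lack of spanning ones was not tested.

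DBP2, a DEAD-box RNA helicase (YNL112W, chromosome XIV, 413639 to 416281, plus strand), has its 1002-base intron late in the coding region, after 1273 coding bases. Of 432 reads, 353 (81.7%) spanned the intron. Before it ended 22 reads (5.09%, 3.39 to 7.59), and 18 of these were 1 isoform that stopped 704 bases upstream of the intron. Inside it lay 11 reads on 10 isoforms, which started between intron bases 213 and 496 and ended between 660 and 972. Only 2 of the 22 early ends and none of the 11 inner reads were A-rich.

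VMA10, a subunit of the vacuolar proton pump (YHR039C-A, chromosome VIII, 187173 to 187679, minus strand), had 426 spanning reads of 530. A further 70 reads (13.2%, 10.6 to 16.4) started within its 162-base intron, of which 57 fell 11 or 12 bases before the second exon. The coding part of exon 1 is the 3 bases of the start codon, printed in lower case just before the capitals in its first sequence, with the place of the frequent inner starts inside the lower-case intron stretch of the second (intron chrVIII:187515-187676).
VMA10 5′ splice site: caaagcagaatgGTATGTgccatt
VMA10 3′ splice site: taatattctcttTAGtcccaaaaaaac
The spanning molecules of VMA10 started a median of 29 bases before the intron, among the shortest distances of the set. Set side by side, the last 12 bases of its exon 1 and the last 12 bases of its intron had the same letter at 2 places. This match covers 12 bases only, fewer than the median of 29, so it cannot tell how the inner starts arose. The part of read alignment in them was not tested.

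**Figure D2:**
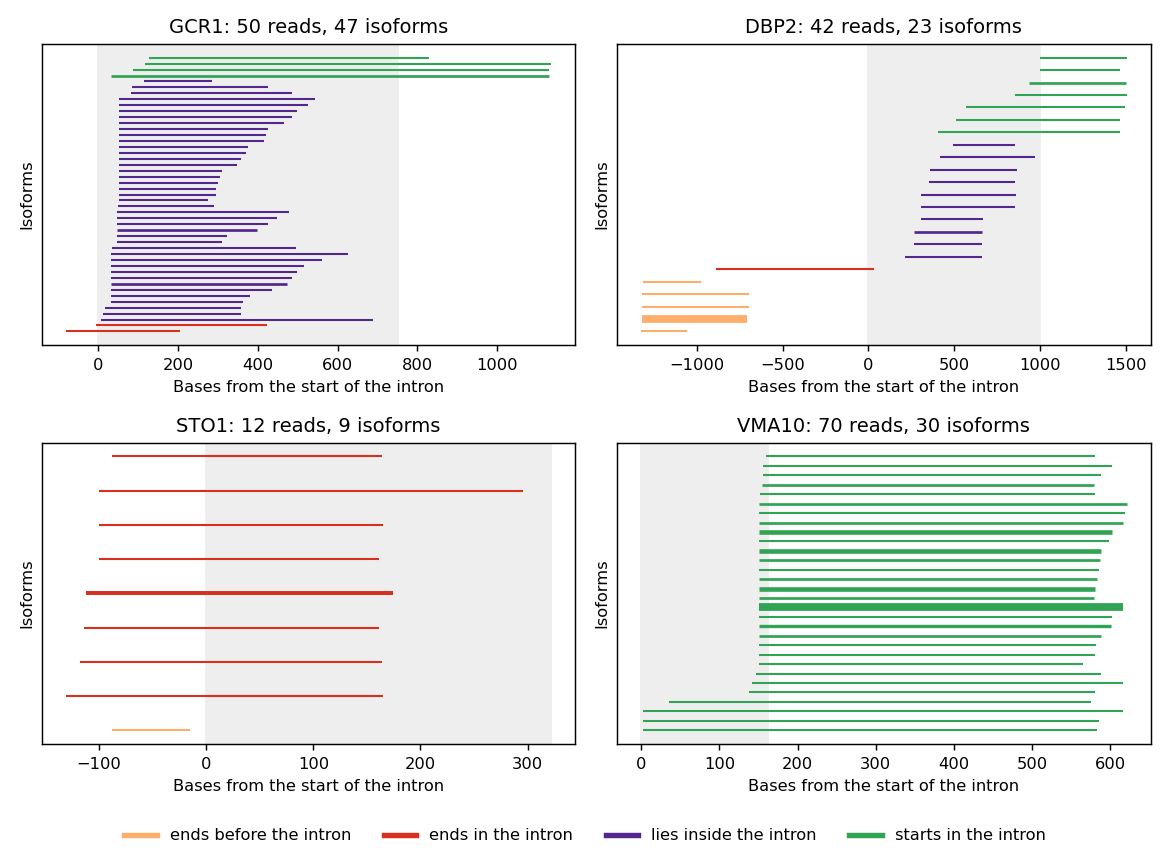
Isoforms of GCR1, DBP2, STO1 and VMA10 that end before, end in, lie inside or start in the intron. Each line is 1 isoform from start to end in bases from the first intron base (horizontal axis), thicker with more reads, and the grey band is the intron. The 41 inner isoforms of GCR1 began near the start of the intron, while most inner starts of VMA10 stood at its end.

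Other genes had starts within the intron at lower counts. NCE101, named for export without a signal peptide, had 15 of 64 reads there (23.4%, 14.7 to 35.1), between intron bases 56 and 113 of 143. HAC1 had 24 of 233 (10.3%, 7.02 to 14.9), spread over 19 isoforms from base 1 to base 228 of 252. YBR090C had 44 of 366 (12.0%, 9.08 to 15.8), but every read of this gene also overlapped another annotated gene on its strand. UBC12, the conjugating enzyme of the ubiquitin-like protein Rub, had 6 of 71 (8.45%, 3.93 to 17.2).

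Ends within the intron were thinly spread: the 159 reads belonged to 138 isoforms, 127 of them with 1 read, and the largest isoform had 6. YBR219C gave 44 of the 159 from only 47 reads of its own, all of them on molecules that also overlapped another gene upstream, and 19 of these ended before A-rich sequence. It was singled out after its values were seen. Of all 159, 30 (18.9%) were A-rich, 63 (39.6%) overlapped another gene, and 90 reads in 28 genes were neither. Scaled by length, intron ends numbered 7.15 per kilobase of intron, against 2.53 per kilobase of coding exon past the intron. Without YBR219C the values were 5.27 and 2.53, and leaving out A-rich ends as well gave 4.76 and 1.18. In ribosomal protein intron genes the exon had the higher density, 97.8 per kilobase against 36.4 in the intron, but RPS14B gave 2169 of their 3580 exon ends, and without it the values were 39.0 and 35.5. Before the branch motif lay 129 of the 159 ends (81.1%), and 75.7% of the intron bases lie there when introns are weighted by their ends. Without YBR219C these values were 73.9% and 69.9%.

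The highest shares belonged to genes with 55 to 99 reads. SRB2, a Mediator subunit, had 4 of 55 reads ending within the intron (7.27%, 2.86 to 17.3), at bases 50 to 70 of 101. HNT2, a dinucleoside hydrolase, had 7 of 99 (7.07%, 3.47 to 13.9), 6 of them 1 isoform that stopped at intron base 6. PHO85, a cyclin-dependent kinase, had 6 of 88 (6.82%, 3.16 to 14.1), and BIG1, needed for cell wall glucan, had 5 of 76 (6.58%, 2.84 to 14.5). These 4 intervals overlap widely and their order is within counting error. The ends of SRB2, PHO85 and BIG1 were all on isoforms of 1 read, so each share was 0% when isoforms needed at least 2 reads. The share of HNT2 was 0% with a margin of 10 bases at the intron edges and 21.9% without A-rich ends. KIN28, the kinase of the general factor TFIIH, had 3 of 66 and IST1, an endosomal sorting protein, 4 of 89, and all 4 ends of IST1 were A-rich and on another gene. TMA20, a ribosome-associated protein, had 8 of 275 (2.91%, 1.48 to 5.63; 7.21% without A-rich ends), HAC1 6 of 233, NMD2, a factor of nonsense-mediated decay, 2 of 100, and GCR1 2 of 101. STO1, the large subunit of the nuclear cap-binding complex (YMR125W, chromosome XIII, 517539 to 520446, plus strand), lies outside this ranking with 35 reads and was picked after its values were seen. There, 11 reads (31.4%, 18.6 to 48.0) on 8 isoforms ended at bases 161 to 296 of its 322-base intron, with a median of 165, and none was A-rich. These molecules started 88 to 131 bases before the intron, and the 15 spanning ones a median of 100 bases before it, so the start sites of both kinds overlapped.

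Near the 5′ splice site, ends were densest in the last few exon bases among the windows compared. The last 5 bases of exon 1 held 16 ends in 10 genes, or 3.2 reads per base, and none was A-rich. Positions 6 to 50 bases before the intron held 0.511 per base, the first 10 intron bases 1.4 and intron bases 11 to 60 held 1.0 per base. BIG1 and PHO85 gave 3 of the 16 each, and TMA20 and LSM7 2 each. Of the 14 ends in the first 10 intron bases, HNT2 gave 7, and 6 of these were 1 isoform. In ribosomal protein intron genes the same windows held 1.6, 0.333, 0.5 and 0.5 reads per base. As a share of the gene, ends before the intron were highest in YBR090C, with 60 of 366 reads (16.4%, 12.95 to 20.53), all on molecules that overlapped another gene, followed by BIG1 with 9 of 76 (11.8%, 6.36 to 20.999), SRB2 with 5 of 55 (9.09%, 3.95 to 19.6), DBP2 and SCS22, a homologue of endoplasmic reticulum contact proteins, with 2 of 51.

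In most genes with enough reads of both kinds, the molecules recovered that stopped in or before the intron began further upstream than those that spanned it. In 18 genes with at least 3 early-ending and 20 spanning reads, the early-ending ones had the more distant median start in 16, and by 50 bases or more in 14. The median difference over the 18 genes was 309.5 bases. In 8 of the 14 no early-ending read overlapped another gene. These were BIG1, TMA20, SRB2, HNT1, PHO85, LSM7, KIN28 and PMI40, with 66 early-ending reads and differences of 168 to 449 bases. In TMA20 the early-ending molecules started a median of 417 bases before the intron and the spanning ones 43. In SRB2 the values were 470 and 25, in PHO85 302 and 53, and in LSM7, a subunit of the ring that binds the end of U6 RNA, 529 and 80. HNT1, a nucleoside phosphoramidase, had 399 and 77, and most of its 9 early ends lay at intron base 106 of 111.

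Seen from the start site, molecules that began that far upstream were few in most of these genes and tended to stop early. With a limit set 50 bases short of the median early start, 9 molecules of TMA20 started as far upstream, and 8 of them ended in or before the intron (88.9%, 56.5 to 98.0), against 10 early-ending reads of 275 in the gene as a whole. In PHO85 the count was 9 of 11 (81.8%, 52.3 to 94.9), in KIN28 5 of 6, in BIG1 14 of 22 (63.6%, 43.0 to 80.3) and in HNT1 5 of 9. Of the spanning molecules, 1 of 238 in TMA20, 4 of 893 in HNT1, 2 of 64 in PHO85 and 1 of 54 in KIN28 began as far upstream. In BIG1 the number was higher, 8 of 41 (19.5%, 10.2 to 34.0). The limit was set from the early-ending reads themselves, so these counts are a description. DBP2, HAC1, RPP1B and GPI15 showed no such gap: early-ending and spanning molecules of DBP2 began a median of 1319 and 1312 bases before the intron, and both classes of HAC1 at 727.

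The recovery of short molecules moves with this difference. Of all reads in the series, 0.612% were shorter than 200 bases and 5.63% shorter than 300, with a median length of 819. In 12 of the 14 genes, and in 7 of the 8, a molecule from the usual start to the last intron base would be under 200 bases long. Over the 14 genes this length ran from 126 bases in SRB2 to 383 in YBR090C. In the genes without the gap it was longer, 432 bases in RPP1B, 668 in GPI15, 979 in HAC1 and 2314 in DBP2. The part of this limit in the difference was not tested.

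**Figure D3:**
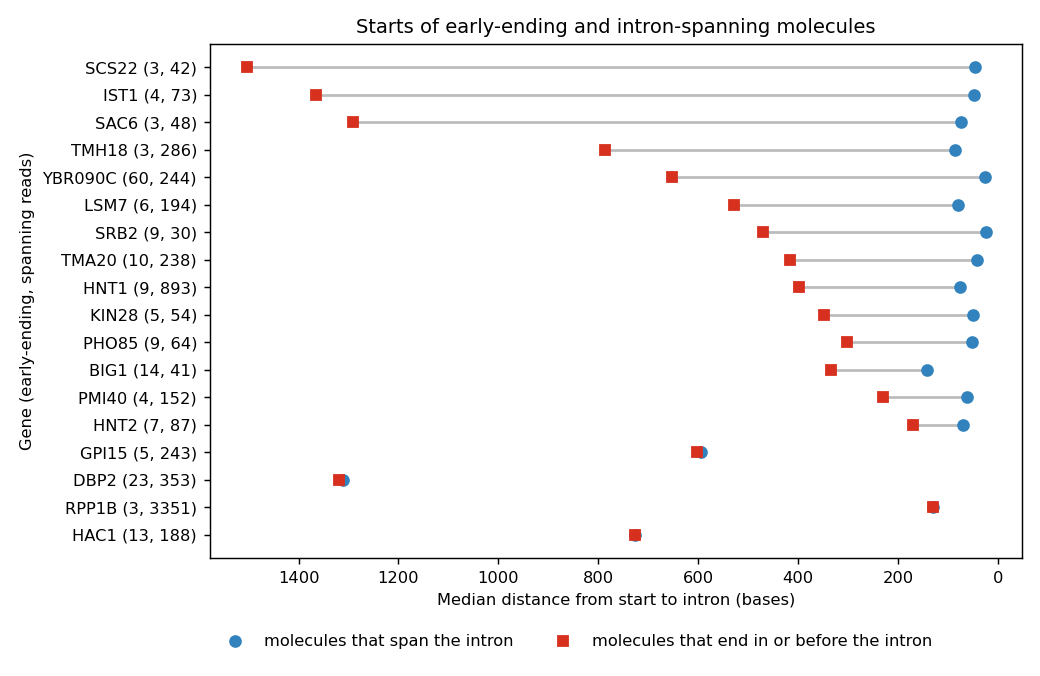
Median distance from molecule start to intron, in bases (horizontal axis, upstream to the left), for early-ending molecules (squares) and spanning molecules (circles) in the 18 genes with at least 3 early-ending and 20 spanning reads. Read counts are in brackets, early-ending first. Squares lie 50 bases or more to the left of circles in 14 genes, and on or beside them in GPI15, DBP2, RPP1B and HAC1.

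The stretch between molecule start and intron was short in most members. Over 107 genes with at least 20 spanning reads, the median of the gene medians was 72 bases, from 25 in SRB2 to 1312 in DBP2, and 10 genes exceeded 200. No gene had a median of 20 bases or less, and 8 had 21 to 30. Among the 36364 spanning reads, 186 (0.511%, 0.443 to 0.590) started within 20 bases of the intron, 1413 (3.89%) at 21 to 30 bases, 1978 (5.44%) at 31 to 40, 5289 (14.5%) at 41 to 60 and 13462 (37.0%) at 61 to 100. Of the 186, 50 came from YJR112W-A. Ribosomal protein intron genes had 0.658% within 20 bases, 7.88% at 21 to 30 and 17.0% at 31 to 40, so their molecules began closer to the intron. Whether a read with few exon bases before a splice junction could be aligned is not given in the sources used here and was not tested.

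**Figure D4:**
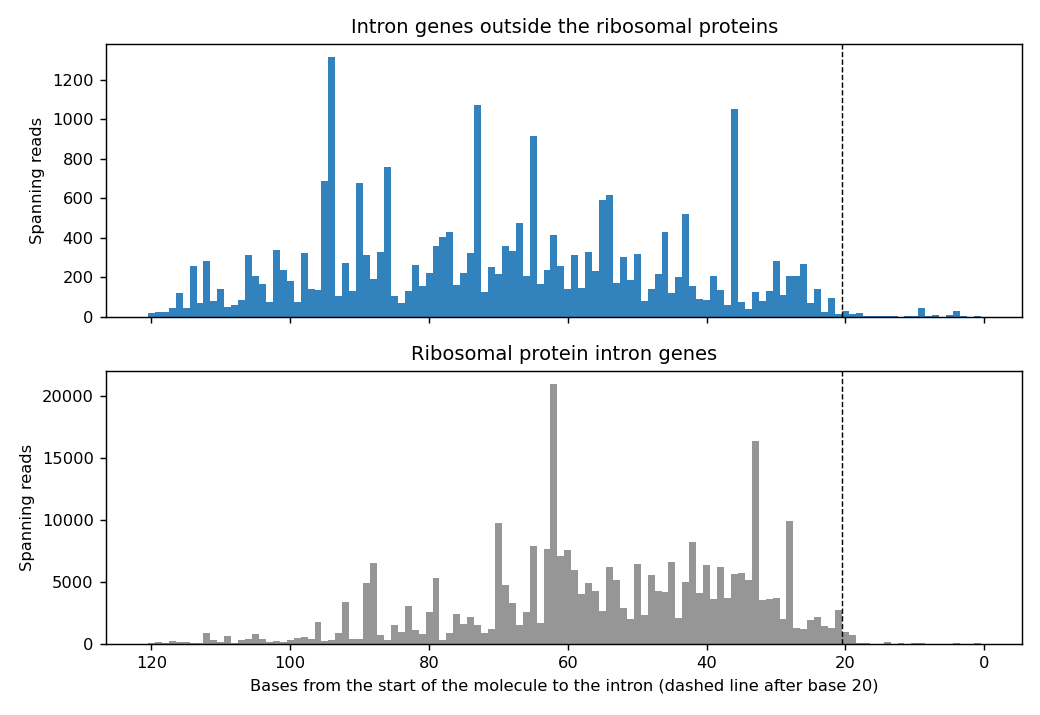
Spanning reads (vertical axis) by the number of bases from molecule start to intron (horizontal axis, the intron at the right), for members above and ribosomal protein intron genes below. The dashed line marks 20 bases. To its right lie 0.511% of the spanning reads of the members and 0.658% of those of ribosomal protein intron genes.

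In 4 of the 107 genes the spanning molecules began past the annotated start codon, a feature singled out after it was seen. HNT1 (YDL125C, chromosome IV, 239019 to 239606, minus strand) has 158 annotated codons and 97 coding bases before its intron, yet 876 of 893 spanning reads (98.1%, 97.0 to 98.8) started inside that stretch. The leading start, with 348 reads, lay 20 bases past the first base of the annotated coding region and 22 bases before the next in-frame ATG, codon 15. HNT2 (YDR305C) showed the same arrangement: 81 of 87 spanning reads (93.1%, 85.8 to 96.8) began past the start codon, and 16 bases separated the leading start from codon 12, the next in-frame ATG. In IAI11 (YBL059W, chromosome II, 110594 to 111244, plus strand) all 23 spanning reads did so, with codon 40 as the next in-frame ATG, 7 bases past the leading start. The spliced coding sequences around these downstream codons are printed with the ATG in capitals.
HNT1 codon 15: acaacaacaaaaATGtctgctcctgct
HNT2 codon 12: aaacctaaaagcATGaataagccaata
IAI11 codon 40: tggccaacaataATGttagtgagcaga
The last of the 4 was YBR090C, where all reads overlapped another gene and the next in-frame ATG lay in exon 2. In these molecules the annotated first codon was not part of the RNA. Which codon was translated is not measured by end pairs.

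Starts at the 3′ splice site itself were examined next, since an end pair that begins there covers no exon 1. The 6 bases from the last 3 of the intron to the first 3 of the next exon held 89 starts in 38 genes, or 14.8 reads per base. Exon 2 bases 4 to 30 held 7.96 per base and bases 31 to 60 held 5.0. Of the 215 reads in bases 4 to 30, 90 lay at base 19 alone, which raises that window. Ribosomal protein intron genes had 261 per base at the junction and 39.0 and 26.6 in the following windows, a steeper step. They also had 2649 starts 13 to 8 bases before the exon, where the members had 69, 57 of them in VMA10.

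The junction starts fell mainly to genes with a very short coding part of exon 1. In the 30 genes with 1 to 12 coding bases before the intron they made up 47 of 3664 reads (1.28%, 0.966 to 1.70). With 13 to 30 coding bases they made up 18 of 11468 (0.157%), with 31 to 60 bases 10 of 13457 (0.0743%) and with more than 60 bases 14 of 11053 (0.127%). YSF3, a subunit of a splicing factor that binds the branch region, had 12 of its 40 reads at the last intron base, and its start codon is directly followed by the intron (chrXIV:366036-366157, plus strand).
YSF3 5′ splice site: agaaaagaaatgGTATGTtacgtt
YSF3 3′ splice site: taatactcaaaaCAGgcggaaaagcag
VMA9, RFA2 and SAR1 had 7 such starts each and TAF14, a subunit shared by chromatin complexes, 9. Genes with few exon 1 coding bases had a median genomic distance of 39 bases from start site to start codon, against 31, 29 and 32 in the longer classes and 41 in intronless genes. The part of read alignment across short first exons in these starts was not tested.

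**Figure D5:**
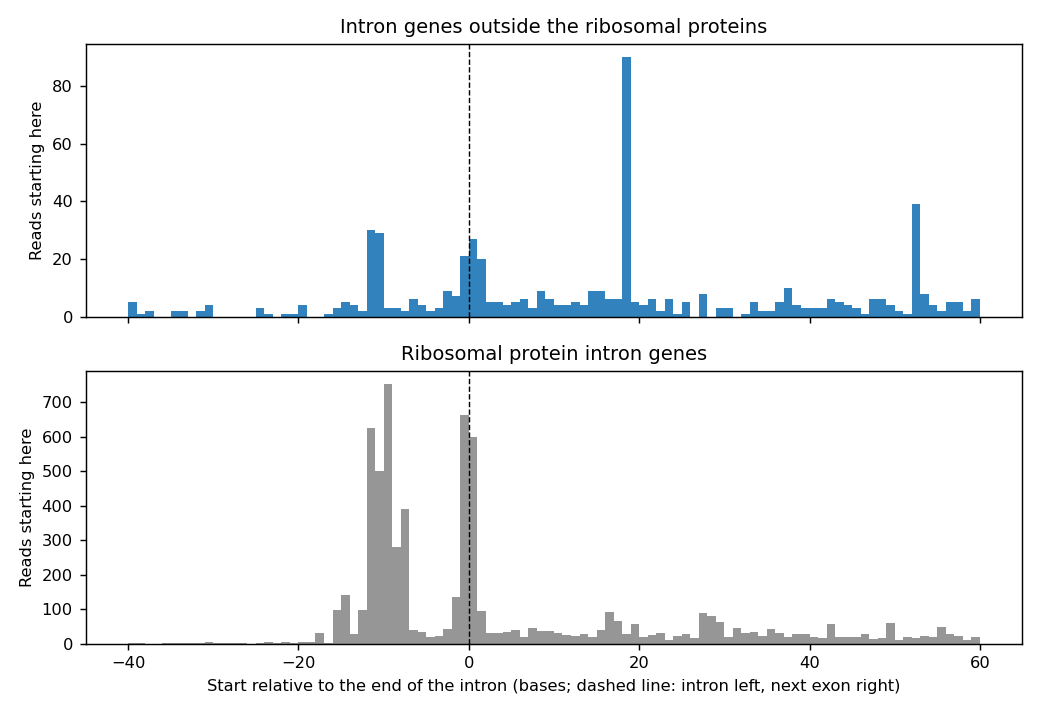
Reads that start at each base around the end of the intron (horizontal axis, bases, the dashed line between the last intron base and the next exon), for members above and ribosomal protein intron genes below, on separate vertical axes. The 57 inner starts of VMA10 stand left of the line, and the 90 starts at exon 2 base 19 come from 4 genes, chiefly RPO26 and BOS1.

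Starts past the intron were concentrated at single positions in some genes, often on 1 end pair. RPO26 had 57 reads on 6 isoforms that began at exon 2 base 19, and 49 of these were 1 isoform. BOS1, a SNARE of transport to the Golgi, had 31 on 1 isoform at the same offset. UBC12 had 40 of 71 reads at exon 2 base 62, and NBL1, a chromosomal passenger protein, 35 of 61 at base 53, and all 61 reads of NBL1 also overlapped another gene. In each of these 2 genes that start belonged to 1 isoform, and with each isoform counted once the share starting past the intron went from 59.2% to 11.5% in UBC12 and from 68.9% to 27.3% in NBL1. NMD2 had 96 of 100 reads past the intron (96.0%, 90.2 to 98.4), and 73 of them were 1 isoform that began at exon 2 base 2139, deep within the coding region. Whether such reads are copies of 1 molecule was not tested. SEC27, a coat subunit of vesicles that leave the Golgi, had 93 of 100 (93.0%, 86.3 to 96.6), with at most 8 at 1 site, and SAC6, the actin bundler fimbrin, had 65 of 116 (56.0%, 47.0 to 64.7). TUB1, alpha tubulin, had 26 of 248 reads at base 1160, also on 1 isoform.

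The share of molecules that covered the whole coding region fell with coding length in members and intronless genes alike. The median was 93.6% for members and 94.4% for intronless genes of up to 500 coding bases, and 81.3% and 86.8% from 501 to 1000. It was 80.2% and 70.1% from 1001 to 1500, and 6.0% in 5 members against 19.7% in intronless genes above that. NMD2, SEC27, SAC6 and GCR1 belong to this last class, so their late starts cannot be told apart from a possible loss of long molecules during recovery. DBP2 belongs to it too, but 353 of its 432 reads spanned the intron and 37 started past it. Its intron lies late in the coding region, so the shares are not directly comparable.

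Of the 8 genes with 2 introns, 5 had nearly every molecule across both, namely SUS1, VMA9, HMRA1, DYN2 and YOS1. SUS1, which acts in transcription and mRNA export, had 45 reads, of which 43 spanned the first and 45 the second intron. VMA9, a small proton pump subunit, had 328 reads with 307 and 326 spanning. DYN2, the dynein light chain, had 68 of 70 for either intron, and YOS1, a protein of transport to the Golgi, 174 and 175 of 179. TAD3, a subunit of the tRNA adenosine deaminase, had 90 and 95 of 144, with 50 reads past the first intron. In HOP2, a meiotic pairing gene, all 28 reads began past the first intron and spanned the second. In EFM5, a methyltransferase of a translation factor, 46 of 47 spanned the first intron but 38 the second, where 4 ended within it and 5 between the introns.

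Genes known for regulated or unusual splicing did not share 1 pattern. YRA1, an mRNA export factor with a 766-base intron, had 148 of 166 reads (89.2%) spanning and none ending within it. PTC7, a phosphatase gene whose spliced and unspliced messages are both translated, had 159 of 191 (83.2%) spanning and 17 of its late starts on 1 isoform at exon 2 base 817. MMS2, a ubiquitin-conjugating enzyme variant, had 76 of 78, GLC7, the catalytic subunit of a protein phosphatase with a 525-base intron, 27 of 32, and MUD1, a protein of the U1 particle, 37 of 49. REC107 had 25 of 35, with 5 starts within the intron. No molecule of AMA1, whose splicing depends on a meiotic factor, was seen. Around the read minimums, YBR062C and COX5B had 20 and 19 reads, SCS22 and MUD1 51 and 49, and ECM33 and PTC7 206 and 191.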

How the data were processed

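TIF-Seq end pairs were measured in the rrp6 deletion strain. The authors deposited a table of start, end and raw count per isoform, pooled over 4 libraries, so the depth of each library is unknown. The tools named are Novoalign 2.07.10 and CASAVA, with build R64, per the submitters' processing notes. The sources used here do not give how spliced reads were aligned or whether PCR copies were collapsed, so reads may not be independent molecules.

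Positions were placed on the R64 sequence and annotation of RefSeq. Each read was classed by its ends relative to the first intron. Shares of a gene required 50 sense reads, and medians of start distance 20 spanning reads. An end was called A-rich with at least 6 A among the next 10 genome bases. Shares carry Wilson and CPM values Poisson intervals of 95%, and a count of 0 was read as allowing 3 counts. On isoforms simulated from known intron edges in genes with 1 intron, the classing recovered 600 of 600. This checks the code only, since the classing uses the same edges. Python 3.11.15, pandas 2.3.3, numpy 2.4.6, SciPy 1.17.1 and matplotlib 3.10.9 were used.

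Named genes were the 10 with most reads, the 10 with the highest share ending within the intron, the 5 highest for ends before, starts within and starts past, genes with 2 introns, genes known for unusual splicing, and those at each read minimum. Members and lists were chosen with earlier results of these data known.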

Additional observations from a re-analysis of the deposited data

How the results depend on the processing

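Keeping isoforms with at least 2 reads gave a summed level of 20743 CPM, 96.5% spanning, 0.101% ending within, 0.221% ending before, 0.429% starting within and 2.68% starting past the intron, 1 gene over 5% ending within, and 87.5% of intron ends before the branch motif. With at least 5 reads these were 19311 CPM, 97.8%, 0.0234%, 0.187%, 0.195%, 1.81%, 1 gene and 100%, the last over very few reads. Counting each isoform once gave 26971 CPM, 78.6% spanning, 1.20% ending within, 0.706% ending before, 2.55% starting within and 16.5% starting past. Without A-rich ends the level was 20593 CPM, spanning 91.3%, ends before 0.421% and starts past 6.66%. Without isoforms on another gene the level was 21978 CPM, spanning 92.4%, ends within 0.247%, ends before 0.177%, starts within 0.833% and ends before the branch motif 70.8%. Relative to reads outside ribosomal protein genes the level was 31369 CPM. A margin of 10 bases at the intron edges gave 0.341% ending within and 0.658% starting within. Without UBC4 the shares were 90.7% spanning, 1.10% starting within and 7.19% starting past. Without YBR219C, an alternative chosen after seeing the data, ends within fell to 0.290% and those before the branch motif to 73.9%. With at least 200 reads per gene, 0 genes exceeded 5%, against 4. The median start distance stayed between 71 and 76 bases in each of its alternatives.

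Of 69 alternative values for all members, 28 moved by less than their interval and 41 by more; for single genes these numbers were 143 and 50 of 193. Of the 138 isoforms ending within the intron, 127 had 1 read. Of the 138 reads ending before it, 70 were on isoforms seen 2 or more times, as were 136 of the 384 starting within it. The causes of the shifts were not tested. Leaving out a culture or preparation could not be run, and no paired analysis was possible because the table pools the 4 libraries in 1 column.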

Other observations

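RCF3, a factor of respiratory supercomplexes, had 30 of 112 reads (26.8%) that spanned the intron and ended in exon 2 before the stop codon, the highest such share among the 94 genes with at least 50 reads, against 0.747% over all members. CMC4, a small mitochondrial intermembrane protein, had 8 reads, of which 5 ended within its 72-base intron at bases 43 to 51. NYV1, a vacuolar SNARE, had 339 reads, of which 10 started within the intron, all as 1 isoform at base 81 of 141. All 3 were picked after their values were seen.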
